A study of Mus musculus with 6 samples.

Results

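Aatk, Pcp4l1, Extl1, Uck1, Nrp2 and Gm13152 are 6 of the 18419 genes with a count in the livers of obese mice, and 13431 of these genes passed the filter on low counts, all 6 among them. They were chosen by their measured levels. Each was lower in every liver transduced with AAV8-TBG-Cre than in every liver transduced with AAV8-TBG-GFP, with little spread. Their difference between the vectors is therefore described here without a test. All 6 mice were Mettl14f/f males on a high-fat diet (HFD) from 8 weeks of age. After 10 weeks of HFD, 3 received AAV8-TBG-GFP and 3 received AAV8-TBG-Cre, and livers were taken 8 weeks later for RNA-seq. The labels give the genotype of the GFP livers as WT and of the Cre livers as METTL14 KO, although the floxed alleles were present in both groups. The TBG promoter drives Cre in hepatocytes, whereas whole-liver RNA comes from all cells of the organ. Lower RNA per cell and fewer cells of a type cannot be told apart in these samples.

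METTL14 is the structural partner of METTL3 in the complex that writes N6-methyladenosine (m6A) on RNA. The 6 genes share no pathway. Aatk encodes a membrane-anchored kinase of the lemur family studied mostly in neurons, where it acts on recycling endosomes. Pcp4l1 encodes a small protein related to the calmodulin-binding PCP4. Extl1 belongs to the exostosin family of glycosyltransferases, whose members build heparan sulfate chains. Uck1 phosphorylates uridine and cytidine in pyrimidine salvage. Nrp2 is a co-receptor for class 3 semaphorins and for VEGF-C. Gm13152, named Zfp982 in RefSeq, is a zinc finger gene in a cluster of similar genes on chromosome 4, and KRAB zinc finger proteins are known for silencing through TRIM28.

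Library totals lay between 20356440 and 21010508 expected counts, and levels are given as CPM, counts scaled to a common library size after TMM normalization. Mettl14 itself was 6.30, 6.43 and 5.81 CPM in GFP replicates 1, 2 and 3, and 4.96, 5.38 and 4.86 CPM in Cre replicates 1, 2 and 3. In FPKM, which has no TMM scaling, the groups overlapped. Values were 2.31, 2.31 and 2.01 FPKM in the GFP livers and 1.92, 2.40 and 1.82 FPKM in the Cre livers. By CPM the Cre livers held 82.0% of the GFP level. The log2 fold change was -0.29, with a standard error (SE) of 0.15 and an adjusted p of 0.337 by edgeR. Reads from outside a deleted exon count toward this value, so it is no check of the deletion. All 10 hepatocyte markers passed the filter. Their summed level lay between 50540 and 59492 FPKM in GFP livers and between 53515 and 56746 FPKM in Cre livers. Most of this sum was Alb, at a mean of 32110 and 31486 FPKM. At an adjusted p under 0.05 edgeR called 0 of 10. DESeq2 called 2, beside 7.44% of all genes, and limma 0, beside 0.181%. The 2 at an unadjusted p under 0.05 by edgeR (20.9% of all genes) were Cps1 and Ttr. Cps1 had a log2 fold change of 0.74 (SE 0.27, adjusted p = 0.177) and Ttr had -0.57 (SE 0.22, adjusted p = 0.194).

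**Figure D1:**
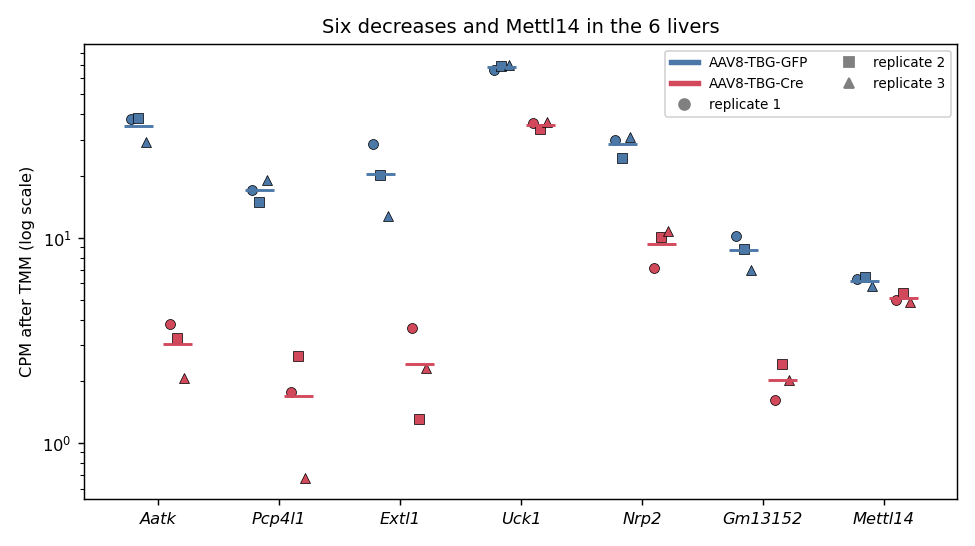
Level of the 6 genes and of Mettl14 in each liver, in CPM after TMM scaling on a log axis. Points are livers, shapes mark the replicate and bars mark the mean of 3. On this scale the Cre livers lie below the GFP livers for each gene, whereas in FPKM the groups overlap for Mettl14. Aatk shows the widest gap of the genes plotted, with a lowest GFP liver of 29.3 CPM and a highest Cre liver of 3.82 CPM.

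Aatk was 37.9, 38.4 and 29.3 CPM in the GFP livers and 3.82, 3.24 and 2.07 CPM in the Cre livers. Every Cre liver was below every GFP liver, and the lowest GFP liver exceeded the highest Cre liver 7.67-fold. Mean levels were 35.2 ± 5.13 CPM (SD, n = 3) and 3.04 ± 0.891 CPM (SD, n = 3), and the Cre livers held 8.65% of the GFP level. The log2 fold change was -3.53 (SE 0.23). These values rest on 559 to 753 counts in the GFP livers and on 43 to 80 counts in the Cre livers.

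Aatk (NCBI gene 11302) lies at chr11:120007311-120047183 of GRCm38.p6. Most of its counts in each liver were assigned to a transcript of 5195 bases. This transcript took 100%, 100% and 98.0% of the gene's counts in GFP replicates 1, 2 and 3 and 86.1%, 100% and 68.9% in Cre replicates 1, 2 and 3. A transcript of 5706 bases took the rest in GFP replicate 3 and Cre replicate 1, and one of 5423 bases took it in Cre replicate 3. Each of these minor shares was 11 to 13 counts. The GENCODE transcript nearest in length to the main one is Aatk-003, of 5177 bases, and it starts inside the gene, whereas Aatk-001, of 5687 bases, starts at the upstream promoter. This match was made by length and not by sequence.

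RefSeq gives Aatk 4 start windows. The upstream and the internal one matched to Aatk-001 and Aatk-003 are shown since these transcripts differ in their start. The windows are 300 bases from RefSeq on the minus strand of GRCm38.p6, read 5′ to 3′, and capitals mark motif letters found on either strand.
Aatk upstream start, chr11:120047103-120047402: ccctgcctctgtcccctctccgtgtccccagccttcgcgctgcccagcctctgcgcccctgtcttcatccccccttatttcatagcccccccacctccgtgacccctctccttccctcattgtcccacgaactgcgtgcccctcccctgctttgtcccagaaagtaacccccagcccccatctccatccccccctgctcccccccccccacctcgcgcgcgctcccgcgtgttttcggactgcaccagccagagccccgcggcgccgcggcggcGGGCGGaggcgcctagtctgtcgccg
Aatk internal start, chr11:120041732-120042031: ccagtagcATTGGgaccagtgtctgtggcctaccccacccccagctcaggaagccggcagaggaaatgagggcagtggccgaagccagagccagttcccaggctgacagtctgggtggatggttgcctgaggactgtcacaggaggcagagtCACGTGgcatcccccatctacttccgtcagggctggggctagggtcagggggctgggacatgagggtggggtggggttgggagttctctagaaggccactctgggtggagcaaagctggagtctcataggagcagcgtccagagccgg
The upstream window holds 1 GGGCGG (GC box), and the internal window holds 1 CACGTG (E-box) and 1 CCAAT box, written as ATTGG because it lies on the other strand. Of all 32851 RefSeq promoter windows, 35.7% hold GGGCGG, 7.15% hold CACGTG and 37.4% hold CCAAT. The letters TTCNNNGAA, TATAAA and TTATNNAA, which 8.30%, 13.6% and 12.0% of all windows hold, were searched as well and are in neither window shown. Of the windows not shown, one is shifted by a few bases from the upstream window and holds 2 GGGCGG, and one, at chr11:120017105-120017404, matched no GENCODE start and holds 1 TTCNNNGAA. A match describes letters and not a bound site.

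Known partners of Aatk were compared in the same fit. Of 15 listed genes (lemur kinases, CDK5 and its activator, RAB11 proteins of the recycling endosome and protein phosphatase 1), 14 were tested, and 0 passed an adjusted p under 0.05 by edgeR, against 0.447% of all genes tested called lower and 0.484% called higher. At an unadjusted p under 0.05 there was 1, which was higher, and the numbers called by DESeq2 and limma were 2 and 0. Over all genes tested, 20.9% had an unadjusted p under 0.05 by edgeR, and 7.44% and 0.181% were called in either direction by DESeq2 and limma, so counts near these shares are no result about a list. The paralog Lmtk2 was 21.6 ± 0.895 CPM (SD, n = 3) in the GFP livers and 18.5 ± 1.73 CPM (SD, n = 3) in the Cre livers, a log2 fold change of -0.23 (SE 0.11, adjusted p = 0.285). The median log2 fold change of the list was -0.02, beside -0.01 over all genes tested.

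Pcp4l1 was 17.1, 14.9 and 19.1 CPM in the GFP livers and 1.77, 2.67 and 0.674 CPM in the Cre livers. The groups did not overlap, with 5.60-fold between the lowest GFP and the highest Cre liver, but the Cre livers spread 3.96-fold among themselves. The lowest of them, replicate 3, held 14 counts. Means were 17.1 ± 2.08 CPM and 1.70 ± 0.999 CPM (SD, n = 3 each), and the log2 fold change was -3.30 (SE 0.39). It was -3.80 without Cre replicate 2 and -2.94 without Cre replicate 3, the ends of the range when 1 library was left out.

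The start region of Pcp4l1 (NCBI gene 66425, chr1:171173264-171196268) is shown because it carries a TATA box, as 13.6% of all promoter windows do, and with it a CCAAT box on the other strand. It is on the minus strand of GRCm38.p6, and capitals mark both motifs.
Pcp4l1 start, chr1:171196219-171196518: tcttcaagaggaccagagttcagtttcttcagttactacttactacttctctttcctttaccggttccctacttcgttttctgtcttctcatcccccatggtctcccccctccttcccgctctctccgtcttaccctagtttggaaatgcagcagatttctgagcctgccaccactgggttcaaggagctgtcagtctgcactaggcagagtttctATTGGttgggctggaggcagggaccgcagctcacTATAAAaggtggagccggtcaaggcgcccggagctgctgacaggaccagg
The files list 1 transcript of Pcp4l1, of 1575 bases, so no choice between isoforms enters its value. Its relative Pcp4 did not pass the filter on low counts. Of 17 genes for calmodulin, its kinases, calcineurin and small IQ-motif proteins, 14 were tested and 0 passed an adjusted p under 0.05 by edgeR, with 5 at an unadjusted p under 0.05 (20.9% over all genes) and 0 by DESeq2 and by limma. The median of the list was -0.09 on the log2 scale.

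Extl1 was 28.6, 20.3 and 12.8 CPM in the GFP livers and 3.63, 1.31 and 2.31 CPM in the Cre livers. The lowest GFP liver exceeded the highest Cre liver 3.54-fold. Extl1 varied most among the GFP livers, 2.23-fold from lowest to highest, and 2.76-fold among the Cre livers, so a small spread within groups does not hold for it. Means were 20.6 ± 7.90 CPM and 2.42 ± 1.16 CPM (SD, n = 3 each), and the log2 fold change was -3.10 (SE 0.41). It lay between -3.52 without Cre replicate 1 and -2.79 without GFP replicate 1.

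The start region of Extl1 (NCBI gene 56219, chr4:134356373-134372547, 1 transcript of 4129 bases) is shown because Extl1, with Aatk and Pcp4l1, had one of the 3 largest fold changes of the 6. It holds 1 CCAAT box, in capitals, on the minus strand of GRCm38.p6.
Extl1 start, chr4:134372498-134372797: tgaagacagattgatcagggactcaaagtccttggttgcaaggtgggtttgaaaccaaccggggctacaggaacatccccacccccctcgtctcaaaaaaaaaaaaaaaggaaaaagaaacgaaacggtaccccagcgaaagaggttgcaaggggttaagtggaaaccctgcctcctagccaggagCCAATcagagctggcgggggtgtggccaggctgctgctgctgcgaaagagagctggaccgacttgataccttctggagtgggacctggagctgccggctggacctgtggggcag
The rest of the exostosin family was measured in full. Of Ext1 and Ext2, which polymerize heparan sulfate, and Extl2 and Extl3, all 4 were tested and 0 passed an adjusted p under 0.05 by edgeR, with 1 at an unadjusted p under 0.05 and 0 by DESeq2 and by limma. Ext1 had a log2 fold change of -0.31 (SE 0.13, adjusted p = 0.223), and Ext2 had -0.01 (SE 0.09, adjusted p = 0.961). Extl2 had -0.43 (SE 0.22, adjusted p = 0.308) and Extl3 had -0.09 (SE 0.11, adjusted p = 0.699). The log2 fold change of Extl1 was more negative than those of its 4 relatives. Extl1 was chosen for its decrease and they were not, so this comparison is no result.

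Among 32 genes of the heparan sulfate linker, its sulfation and the core proteins, 25 were tested and 0 passed by edgeR, with 5 at an unadjusted p under 0.05 (20.9% over all genes), 2 by DESeq2 (7.44% over all genes) and 0 by limma. The median of the list was -0.06 on the log2 scale. Gpc1, which encodes the core protein glypican 1 and was picked out after its values were seen, was 81.6 ± 6.81 CPM and 31.1 ± 15.4 CPM (SD, n = 3 each), a log2 fold change of -1.39 (SE 0.30, adjusted p = 0.0698). Other genes of the list lay the other way, likewise picked out after their values were seen: the glypican gene Gpc3 had 2.94 (SE 0.73, adjusted p = 0.0854), and Hspg2, which encodes perlecan, had 0.49 (SE 0.19, adjusted p = 0.198). Ndst1, an N-deacetylase and N-sulfotransferase that acts on the growing chain, had a log2 fold change of -0.35 (SE 0.13, adjusted p = 0.179).

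Uck1 was 65.9, 68.8 and 69.9 CPM in the GFP livers and 36.4, 33.8 and 36.7 CPM in the Cre livers. It was the most abundant of the 6 genes and had the least spread, 1.06-fold within the GFP livers and 1.08-fold within the Cre livers. The lowest GFP liver exceeded the highest Cre liver 1.80-fold. Means were 68.2 ± 2.07 CPM and 35.6 ± 1.55 CPM (SD, n = 3 each), so the Cre livers held 52.3% of the GFP level, with a log2 fold change of -0.94 (SE 0.09). Its counts ran from 762 to 824 in the Cre livers and from 1296 to 1348 in the GFP livers.

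Uck1 (NCBI gene 22245) lies at chr2:32255002-32260105 and was counted as 1 transcript of 1966 bases. It overlaps the end of Pomt1 by a few bases, and whether the counting used strand is not given in the sources used here. Pomt1, an O-mannosyltransferase, had a log2 fold change of -0.30 (SE 0.10, adjusted p = 0.159). Of 33 genes of pyrimidine salvage, transport, synthesis and breakdown, 32 were tested and 0 passed an adjusted p under 0.05 by edgeR, with 10 at an unadjusted p under 0.05 (20.9% over all genes), 5 by DESeq2 (7.44% over all genes) and 0 by limma. By the study's threshold, which asks for a fold change of 1.2 or more and an unadjusted p under 0.05, 4 were higher and 6 were lower, beside 12.0% and 8.41% of all genes tested. Uck2, the paralog with the same reaction, was 6.53 ± 1.69 CPM and 5.27 ± 1.19 CPM (SD, n = 3 each), a log2 fold change of -0.31 (SE 0.26, adjusted p = 0.539). Dpys, which opens the ring of reduced pyrimidines in their breakdown, had -0.38 (SE 0.12, adjusted p = 0.138). The nucleoside transporter Slc28a1, picked out after its values were seen, had -2.15 (SE 0.43, adjusted p = 0.0610) at 0.893 ± 0.247 CPM and 0.194 ± 0.0517 CPM (SD, n = 3 each). Its paralog Slc28a3, picked out likewise, lay the other way with 1.19 (SE 0.35, adjusted p = 0.123).

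Nrp2 was 30.1, 24.6 and 30.9 CPM in the GFP livers and 7.11, 10.1 and 10.8 CPM in the Cre livers. The lowest GFP liver exceeded the highest Cre liver 2.27-fold. Means were 28.5 ± 3.45 CPM and 9.35 ± 1.97 CPM (SD, n = 3 each), so that the Cre livers held 32.8% of the GFP level. The log2 fold change was -1.61 (SE 0.18).

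Nrp2 (NCBI gene 18187, chr1:62703317-62818692) was counted over 5 transcripts. Their shares moved from liver to liver within each group, and the 4 transcripts of 6673 to 6739 bases are so alike in length that their split is uncertain. The gene totals summed over them were not whole numbers in any liver before rounding. The transcript of 4696 bases took 9.56%, 12.3% and 8.32% of the gene's counts in GFP replicates 1, 2 and 3 and 9.19%, 15.4% and 25.9% in Cre replicates 1, 2 and 3, so the groups overlapped in its share. The RefSeq start region of Nrp2 holds 5 GGGCGG matches and more CpG dinucleotides than 95.0% of all promoter windows.

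Nrp1, the other neuropilin, was 108, 103 and 116 CPM in the GFP livers and 55.5, 71.8 and 76.6 CPM in the Cre livers. The groups did not overlap, but every Cre liver was below every GFP liver in 13.0% of all genes tested. The log2 fold change of Nrp1, -0.68 (SE 0.14), had an adjusted p of 0.0619 by edgeR. Across 15 other settings that adjusted p ran from 0.00157 to 0.228. Plxnb1, a plexin that receives semaphorin 4D, rose from 53.5, 56.6 and 65.5 CPM to 113, 89.7 and 112 CPM, a log2 fold change of 0.84 (SE 0.13, adjusted p = 0.0433). It was the 1 gene called at an adjusted p under 0.05 among the 20 tested of 25 semaphorins, VEGF ligands, plexins, VEGF receptors and Nrp1 (0.484% of all genes were called higher), and its adjusted p ran from 1.58e-05 to 0.183 over 15 other settings. Leaving out any single library other than Cre replicate 1 ended the call. DESeq2 called 4 of the list, beside 7.44% of all genes, and limma called 1, beside 0.181%. Plxnb2 had a log2 fold change of -0.15 (SE 0.11, adjusted p = 0.514) and Vegfa, a main ligand of liver endothelium, had -0.09 (SE 0.11, adjusted p = 0.710). The median of the list was 0.07.

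Neuropilins are expressed by endothelial cells as well as by other cells. All 10 markers of sinusoidal endothelial cells were tested. After TMM scaling the log2 fold change was below 0 for each of the 10. The median was -0.29, beside -0.01 over all genes tested. In FPKM, which has no TMM scaling, the means of Stab1 and Cdh5 were higher in the Cre livers, and the rest were lower. At an adjusted p under 0.05 by edgeR 0 passed, with 1 at an unadjusted p under 0.05 (20.9% over all genes). DESeq2 called 0, beside 7.44% of all genes, and limma called 0, beside 0.181%. The summed level of the 10 markers, likewise without TMM scaling, lay between 56.4 and 102 FPKM in the GFP livers. In the Cre livers it lay between 66.7 and 93.5 FPKM, so the ranges overlapped. Of 5 lymphatic endothelial markers 4 were tested and 0 passed, with 0 at an unadjusted p under 0.05 and 0 by DESeq2 and by limma. Their summed level was 24.9 to 30.5 FPKM in the GFP livers and 24.2 to 33.7 FPKM in the Cre livers. Most of this sum was Prox1, at a mean of 17.5 and 17.1 FPKM, and Reln is also in the list of stellate cell and fibroblast markers. The sum therefore says little about lymphatic endothelial cells. The part of endothelial cells in the Nrp2 difference was not tested.

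Markers of other cell types were summed beside the 6 genes, and at an adjusted p under 0.05 by edgeR 0.484% of all genes were called higher and 0.447% lower. Summed cholangiocyte markers lay between 36.7 and 74.5 FPKM in the GFP livers and between 184 and 434 FPKM in the Cre livers. Of 8 tested, 3 were called higher (Sox9, Cldn4 and Spp1) and 8 had an unadjusted p under 0.05. DESeq2 called 7 of 9 listed, and limma called 0. Most of this sum was Spp1, at a mean of 44.3 FPKM in the GFP livers and 248 FPKM in the Cre livers. Summed macrophage and Kupffer cell markers lay between 142 and 168 FPKM and between 238 and 401 FPKM. Of 10 tested, 1 was called higher (Cd5l) and 7 had an unadjusted p under 0.05, with 5 called by DESeq2 and 0 by limma. Stellate cell and fibroblast markers summed to 71.9 to 114 FPKM and 126 to 315 FPKM, with 0 of 10 called by edgeR (5 at an unadjusted p under 0.05 and 4 by DESeq2, beside 20.9% and 7.44% of all genes, and 0 by limma). Adipocyte markers summed to 43.8 to 56.6 FPKM and 26.9 to 28.5 FPKM, with 2 of 5 tested called lower (Cfd and Cidea). At an unadjusted p under 0.05 there were 2, DESeq2 called 2 of 8 listed lower and limma called 1 lower. Lep lay at 0.76 (adjusted p = 0.403) and Fabp4 at 0.11 (adjusted p = 0.828) on the log2 scale. Of 3 neutrophil markers tested 1 was called higher (S100a8), while Ly6g had -0.52 (adjusted p = 0.177). All 3 had an unadjusted p under 0.05, DESeq2 called 3 of 7 listed higher and limma called 1 higher. Neural and Schwann cell markers, set beside Aatk and Pcp4l1, summed to 1.49 to 1.74 FPKM and 1.39 to 2.69 FPKM, with Nefl and S100b at 0, and 0 of 3 tested passed by edgeR, at an unadjusted p under 0.05, by DESeq2 or by limma. T and NK cell markers (3 tested, Trac at 0) and B and plasma cell markers (3 tested) had 0 called by edgeR, DESeq2 and limma, with 2 each at an unadjusted p under 0.05. The part of these cells in the 6 differences was not tested.

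Gm13152 was 10.2, 8.88 and 6.96 CPM in the GFP livers and 1.62, 2.42 and 2.02 CPM in the Cre livers. The lowest GFP liver exceeded the highest Cre liver 2.87-fold. Means were 8.68 ± 1.63 CPM and 2.02 ± 0.400 CPM (SD, n = 3 each), a log2 fold change of -2.10 (SE 0.23) with 23.3% of the GFP level left. Its expected counts, 133 to 201 in the GFP livers and 34 to 59 in the Cre livers, were not whole numbers in any liver before rounding, like the totals of Nrp2. An expected count is not whole where fragments are divided among similar sequences, so both values are uncertain to that extent.

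Gm13152 (NCBI gene 195531) lies at chr4:147443114-147516064. Of 15 zinc finger genes within 1500 kb of it, 6 were tested. At an adjusted p under 0.05 edgeR called 1 lower, beside 0.447% of all genes, and 2 had an unadjusted p under 0.05 (20.9% of all genes). DESeq2 called 2 lower, beside 7.44% of all genes in either direction, and limma called 0, beside 0.181%. Gm13251 fell from 7.06, 6.73 and 4.19 CPM to 2.10, 2.14 and 1.68 CPM, a log2 fold change of -1.60 (SE 0.26, adjusted p = 0.0444), and this adjusted p ran from 2.52e-05 to 0.186 over 15 other settings. The nearest of the tested genes, 2610305D13Rik, had -2.41 (SE 0.48, adjusted p = 0.0611). Every Cre liver was below every GFP liver for it, as in 13.0% of all genes tested. Gm13139 had -0.87 (SE 0.40, adjusted p = 0.264), while Gm13157 and Zfp933 had 0.26 (SE 0.27, adjusted p = 0.624) and 0.25 (SE 0.16, adjusted p = 0.430). The median of these 6 genes was -0.50 on the log2 scale. These genes resemble each other, so fragments may have been divided among them, and their values are not independent. Among 9 genes of the corepressor that KRAB zinc finger proteins recruit, 0 passed by edgeR, with 1 at an unadjusted p under 0.05 and 0 by DESeq2 and by limma, and Trim28 itself had 0.10 (SE 0.10, adjusted p = 0.578).

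**Figure D2:**
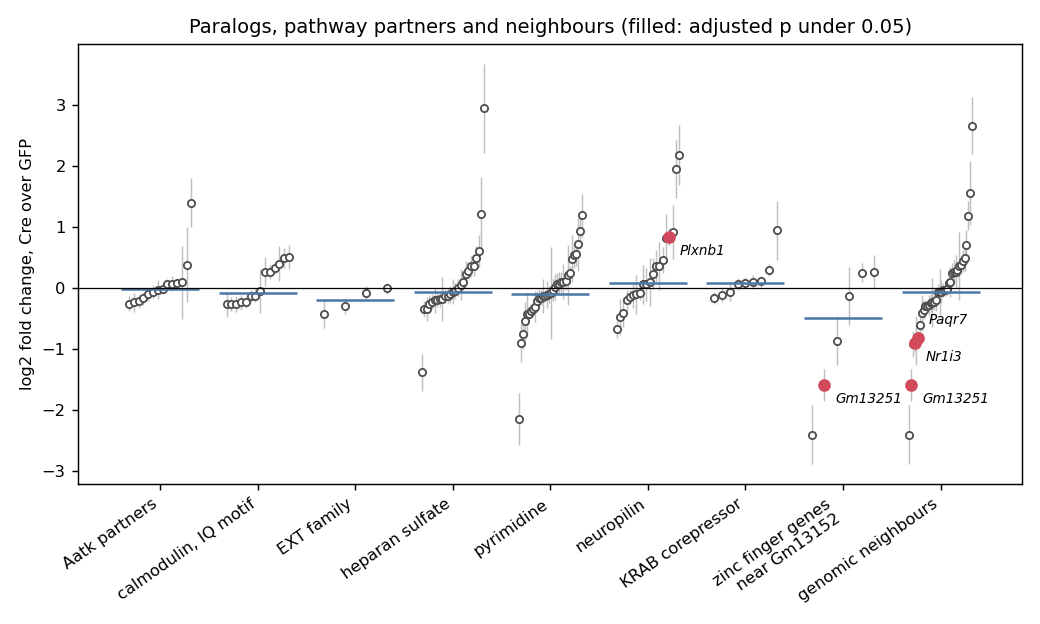
Log2 fold change, Cre over GFP, of the tested genes of each list of paralogs, pathway partners and genomic neighbours, with bars for the standard error and blue lines for the median of each list. Filled points passed an adjusted p under 0.05 by edgeR, which were Plxnb1 among the neuropilin genes, Gm13251 among the zinc finger genes, and Paqr7, Nr1i3 and Gm13251 among the neighbours.

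The 3 nearest tested genes on each side of the 6 genes were compared next, 36 in all. At an unadjusted p under 0.05 there were 16 by edgeR, beside 20.9% of all genes tested. DESeq2 called 2 higher and 6 lower, beside 7.44% of all genes in either direction, and limma called 0, beside 0.181%. The median of the 36 was -0.07 on the log2 scale. At an adjusted p under 0.05, 3 were lower and 0 were higher by edgeR, beside 0.447% and 0.484% of all genes tested. Gm13251 was 1 of these 3. Nr1i3, which encodes the constitutive androstane receptor and lies 17666 bases from Pcp4l1, fell from 181, 165 and 194 CPM to 84.7, 117 and 88.0 CPM (log2 fold change -0.90, SE 0.15, adjusted p = 0.0491). Its neighbour Tomm40l overlaps it and had -0.92 (SE 0.21, adjusted p = 0.0780), so reads of the overlap cannot be told apart without strand. Paqr7, a membrane progestin receptor 124214 bases from Extl1, fell from 139, 145 and 173 CPM to 90.0, 85.6 and 82.3 CPM (log2 fold change -0.83, SE 0.12, adjusted p = 0.0374). The adjusted p ran from 2.17e-05 to 0.198 for Nr1i3 and from 1.81e-07 to 0.145 for Paqr7 over 15 other settings. Leaving out any single library other than Cre replicate 1 ended the calls of Gm13251, Nr1i3 and Paqr7. None of the 6 neighbours of Aatk, of Uck1 or of Nrp2 was called by edgeR.

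**Figure D3:**
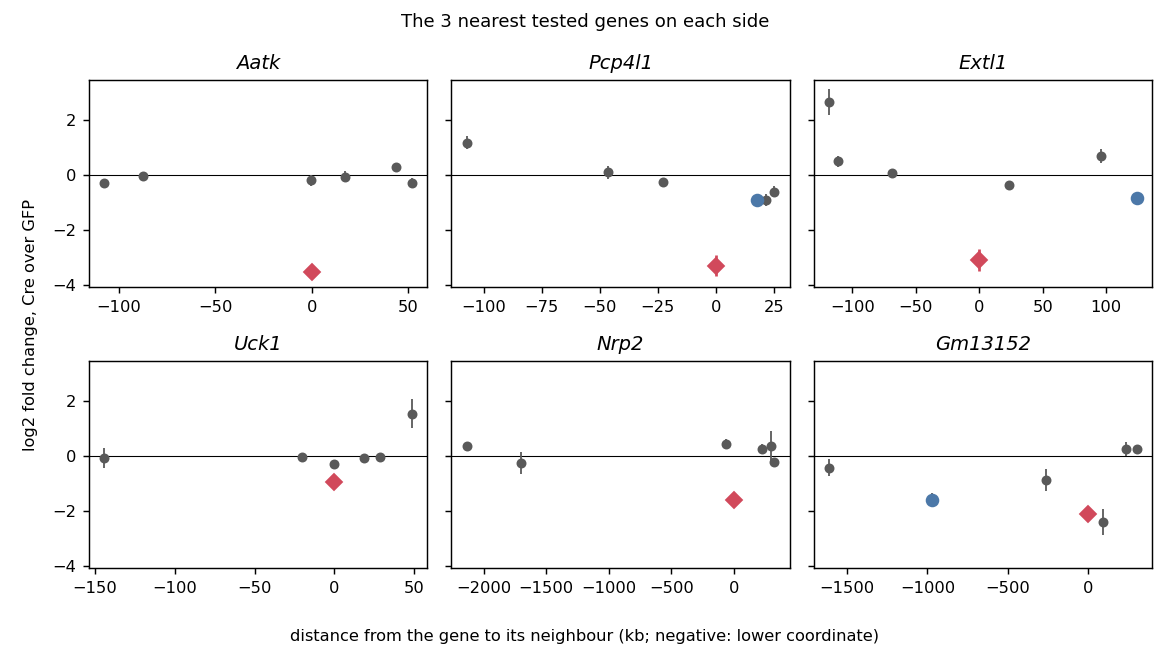
Log2 fold change, Cre over GFP, of each of the 6 genes (red diamonds) and of the 3 nearest tested genes on each side, against the distance between gene ends in kb, with bars for the standard error. Blue points passed an adjusted p under 0.05 by edgeR. Around Aatk the neighbours lie between -0.30 and 0.30, while Aatk, which was chosen for its decrease, lies at -3.53.

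Per length, the GFP livers ranked the 6 genes as Uck1, at 32.6 ± 0.480 FPKM, Pcp4l1, at 10.2 ± 1.06 FPKM, Gm13152, at 6.62 ± 1.42 FPKM, Aatk, at 6.32 ± 1.09 FPKM, Extl1, at 4.68 ± 1.91 FPKM, and Nrp2, at 4.12 ± 0.450 FPKM (SD, n = 3 each). Gm13152 and Aatk differed by less than their spread, as did Aatk and Extl1, and Extl1 and Nrp2. In the Cre livers Uck1 stayed first at 19.2 ± 0.959 FPKM, and the other 5 lay between 0.603 and 1.74 FPKM. Uck1 stood at the 89.8th percentile of all genes by its GFP level, and the others stood between the 59.9th and the 75.5th.

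The library names in the labels come in a short form, for GFP replicates 1 and 2 and Cre replicate 1, and a long form, for the other 3 libraries, and the labels do not say what it means. The genes were not chosen by this contrast, but little spread within groups was part of the choice. Both groups hold libraries of each form, so the choice works against a difference between the forms. A low count of calls is therefore no result about the 6 genes. In a model with the vector, 0 of the 6 genes differed between the forms at an adjusted p under 0.05 by edgeR, where 1.39% of all genes tested were called, and 3 had an unadjusted p under 0.05. DESeq2 called 1 of the 6, beside 5.58% of all genes. Extl1 was the nearest, lower in the long form by a log2 value of -0.96 (SE 0.24, adjusted p = 0.104 by edgeR and 0.0119 by DESeq2). Within the short form the log2 ratio of Cre to GFP was -3.32 for Aatk, -3.18 for Pcp4l1, -2.75 for Extl1, -0.89 for Uck1, -1.94 for Nrp2 and -2.56 for Gm13152. Within the long form the same ratios were -3.46, -3.51, -2.82, -0.99, -1.56 and -1.65. In each form 1 side of the ratio rests on 1 library, Cre replicate 1 in the short form and GFP replicate 3 in the long form. The choice of the genes fixed the sign of these ratios.

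For each gene, the 3 tested genes with the most similar pattern over the 6 libraries were found by Pearson's r of log2 CPM, as a description. All points share the same 6 libraries, and a high r here mostly follows the split between the vectors. Aatk was most like 4931406C07Rik (r = 0.998), Ankra2 (0.995) and Tppp (0.994), and Pcp4l1 was most like Wdr93, Mroh1 and Nlk (each 0.994). Extl1 was most like Smim10l1 (0.997), Gde1 (0.995) and Ilk (0.995). Uck1 was most like Pcsk6 (0.999), Nelfcd (0.998) and D7Ertd143e (0.997). Nrp2 was most like Mapk15 (0.998), Ugt2b34 (0.997) and Slc35b4 (0.997), and Gm13152 was most like E030003E18Rik (0.995), Map3k15 (0.994) and Ercc3 (0.991). Among the 6 genes themselves r lay between 0.868 and 0.976.

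**Figure D4:**
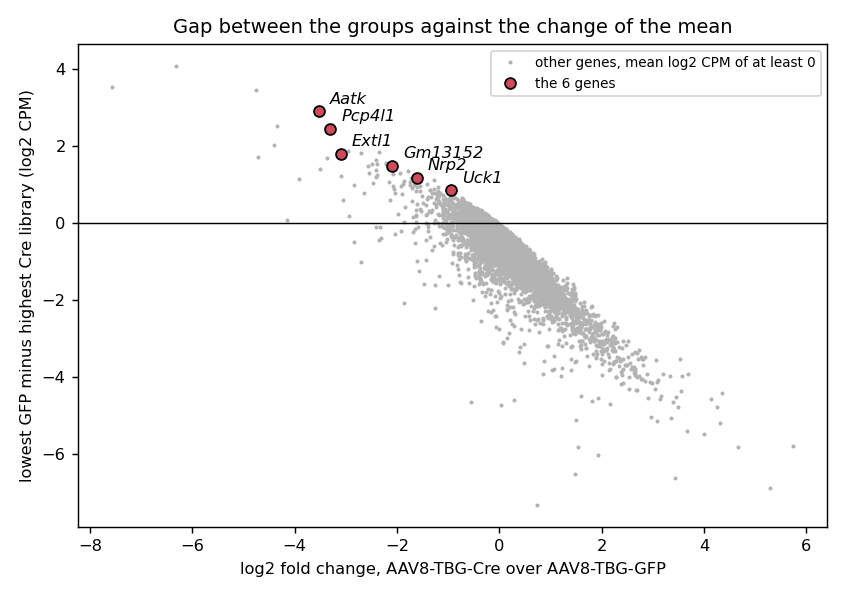
Gap between the lowest GFP and the highest Cre liver in log2 CPM (prior count 2) against the log2 fold change, Cre over GFP, for 12531 genes with a mean log2 CPM of at least 0. Points above 0 on the vertical axis do not overlap between groups. The gaps of the 6 genes run from 2.91 for Aatk to 0.84 for Uck1.

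By this gap the 6 genes ranked 4 (Aatk), 6 (Pcp4l1), 11 (Extl1), 19 (Gm13152), 32 (Nrp2) and 55 (Uck1) among 12531 genes. They are therefore not the 6 widest gaps. In 13.0% of all genes tested every Cre liver was below every GFP liver. The 5 other genes with the widest gaps were Mup17, Mup9, Cfd, Cidea and Cyp2b13. Mup17 and Mup9 encode major urinary proteins, secreted by the liver, and similar copies share their reads. Just above Uck1 was Adra1a, with a gap of 0.85 in log2 CPM, and just below it was Ces1f, with 0.84.

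Calls at an adjusted p under 0.05 depended on the libraries. Without GFP replicate 2, or without Cre replicate 2, edgeR called 0 genes of all tested, with 2079 and 1923 at an unadjusted p under 0.05, and DESeq2 on all libraries called 1157.

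**Figure D5:**
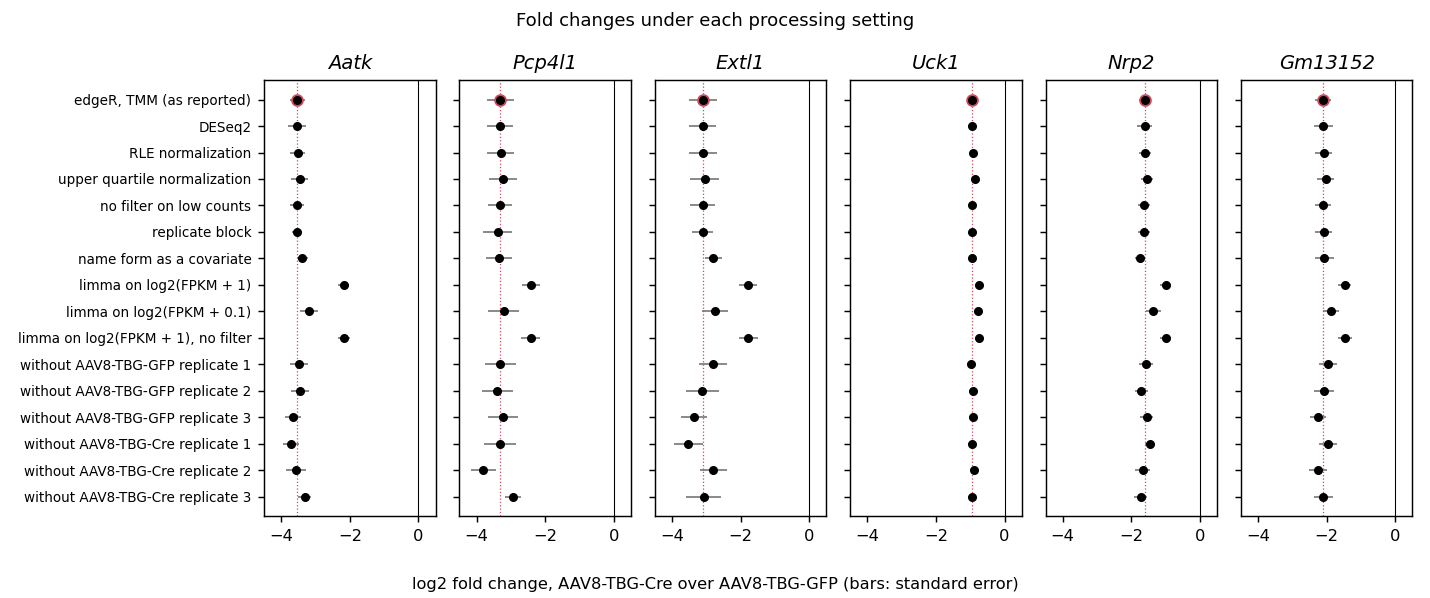
Log2 fold change of the 6 genes, Cre over GFP, under the reported fit (red) and each other setting, with bars for the standard error. Each value is negative; those on log2(FPKM + 1) lie nearest to 0, such as -2.18 for Aatk and -1.47 for Gm13152.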

How the data were processed

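Bulk RNA-seq of whole liver was analysed in 6 mice, 3 per vector, grouped by the sample titles. The authors deposited, per transcript, expected counts (estimated fragments, not normalized) and FPKM, and a table of FPKM per gene. FPKM scales fragments by transcript length and library size and was deposited rounded. The submitters' processing notes name HISAT2, Bowtie2, RSEM and mm10, the study's methods name STAR, HTSeq and DESeq2, and no versions are given. Libraries were made after oligo dT selection or rRNA depletion.

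Expected counts were summed per NCBI gene ID and rounded. edgeR 4.0.16 (R 4.3.3) fitted the genes that passed filterByExpr by quasi-likelihood, with TMM scaling and no factor but the vector, with Benjamini-Hochberg adjustment over 13431 genes. Steps were tested on simulated data. Depth differed little between libraries, so precision was set by the counts of each gene and the spread of 3 mice, and counting error was largest in the Cre livers. No libraries were duplicates (smallest chi-square per gene, 26.5).

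The 6 genes and all lists were chosen with earlier results of these data known. Named genes were the 6, Mettl14, list genes with an adjusted p under 0.05 (at most 5 per list), the closest paralogs, up to 4 further genes per list with the highest levels, the 3 most similar genes per gene, the 5 widest gaps outside the 6, and neighbours with an adjusted p under 0.05. Gpc1, Gpc3, Hspg2, Slc28a1, Slc28a3, Pomt1, Tomm40l, Adra1a, Ces1f and the markers named fall outside this rule and were named after their values were seen. Other settings tried were upper quartile or RLE scaling, no filter, DESeq2 1.42.0, the name form added to the model, the replicate block, each library left out, and limma 3.58.1 on FPKM with a pseudocount of 1 or 0.1 (FPKM of 0.5 or more in 3 libraries, or, with a pseudocount of 1, unfiltered). Promoter windows (250 bases before to 50 after the start) came from RefSeq, GRCm38.p6, where 6 of 6 genes matched with 12 windows. Transcript structures came from GENCODE vM1. Neither protein sequences nor m6A were analysed here.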

Additional observations from a re-analysis of the deposited data

How the results depend on the processing

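The log2 fold change of each of the 6 genes was negative under all 15 alternatives. On log2(FPKM + 1), with or without the filter, it was -2.18 for Aatk, -2.42 for Pcp4l1, -1.78 for Extl1, -0.74 for Uck1, -1.0 for Nrp2 and -1.47 for Gm13152. The pseudocount draws such values toward 0 for low genes, and FPKM also has no TMM scaling. The part of each in these values was not tested. Uck1 moved by more than its small spread under upper quartile scaling (-0.87) and on log2(FPKM + 0.1) (-0.76). Leaving out one library gave -3.71 to -3.32 for Aatk, -3.80 to -2.94 for Pcp4l1, -3.52 to -2.79 for Extl1, -0.97 to -0.90 for Uck1, -1.73 to -1.45 for Nrp2 and -2.25 to -1.96 for Gm13152. In all lists together, edgeR called 1 gene higher and 3 lower. The numbers were 9 and 12 by DESeq2 and 3 and 6 without the filter, 1 lower under upper quartile scaling, 5 lower with name form as a covariate, and 0 lower in each limma fit, with 0 higher in limma without the filter. Leaving out one library gave 0 to 7 higher, the 7 without Cre replicate 1, and 0 to 5 lower, the 5 also without Cre replicate 1. Both were 0 without any one GFP library or without Cre replicate 2, and without Cre replicate 3 they were 0 and 1. Over all genes tested, calls at an adjusted p under 0.05 were 125 by edgeR, 1157 by DESeq2, 107 with RLE, 66 with upper quartile scaling, 372 without the filter, 214 with name form, 9 to 27 by limma, and 0 to 928 with one library left out. The cause of these differences was not tested. By name form, Extl1 passed by DESeq2 (-0.97, adjusted p = 0.0119) and not by edgeR.

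The replicate numbers are shared between the groups. Deviations from the group means correlated at 0.01, -0.26 and 0.21 for replicates 1, 2 and 3. With 3 mice per group, these values cannot decide whether the numbers pair the mice. With the replicate block, 7 genes were called in all, 0 higher and 0 lower in the lists, and the log2 fold change of Aatk was -3.55. Depth limits Pcp4l1 most, at 14 counts in Cre replicate 3.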
